A study of Mus musculus with 8 samples.

Results

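Transcript levels of 10 genes that control entry into the cell cycle were read out of the RNA-seq tables of sorted mouse haematopoietic stem cells. They are the D cyclins Ccnd1, Ccnd2 and Ccnd3, their kinases Cdk4 and Cdk6, and the CDK inhibitors Cdkn1a, Cdkn1b, Cdkn2a, Cdkn2c and Cdkn2d. They were chosen by symbol, and all 10 were among the 24421 genes of the tables. Of these, 9 passed the filter on low counts that left 15917 genes for testing, and Cdkn2a did not.

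The cells were long-term haematopoietic stem cells (LT-HSCs) sorted from bone marrow as lineage-negative, CD117+, Sca1+, CD150-high and CD48-low, and divided by a Vwf-GFP reporter into Vwf+ (megakaryocyte-biased) and Vwf- fractions. The 4 groups were Vwf+ Dnmt3a+/- cells, Vwf+ wild-type (WT) cells, Vwf- Dnmt3a+/- cells and Vwf- WT cells. Dnmt3a+/- mice carry 1 functional copy of the gene for a DNA methyltransferase that sets new methylation. All mice were 10 to 12 months old, and each of the 8 libraries came from a pool of 3 to 4 mice. Every group had 2 libraries, a female pool (replicate 2) and a male pool (replicate 1), so that sex and replicate number cannot be told apart. The reporter was in the sort of all 4 groups, and no library stands for a single mouse.

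In the textbook scheme, mitogens raise the D cyclins, which bind CDK4 and CDK6 and start the phosphorylation of the retinoblastoma protein. This releases E2F factors, whose targets carry out DNA replication. INK4 inhibitors, which include the products of Cdkn2a, Cdkn2c and Cdkn2d, bind the 2 kinases, and CIP/KIP inhibitors, which include those of Cdkn1a and Cdkn1b, act mostly on cyclin E and cyclin A complexes. Quiescent stem cells are known to depend on CIP/KIP inhibitors in mouse and to hold little CDK6 in human.

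Total counts ran from 21809278 to 39402418 per library. Vwf stood at 1030 to 1410 CPM (counts per 1e+06 counts of a library, after scaling) in Vwf+ libraries and at 98.9 to 116 CPM in Vwf- libraries. Dnmt3a stood at 179 to 361 CPM in Dnmt3a+/- libraries and at 175 to 251 CPM in WT libraries, which overlap. It was higher in the Dnmt3a+/- than in the WT library of each fraction and sex. In Vwf+ cells it stood at 279 against 203 CPM (female) and 179 against 175 CPM (male). In Vwf- cells it stood at 275 against 202 CPM (female) and 361 against 251 CPM (male). The count of the whole gene therefore does not check the genotype labels. All 10 LT-HSC markers examined, among them Slamf1, Kit and Procr, had counts in every library, and the haemoglobin genes Hbb-bs and Hba-a1 were at 0 throughout. Malat1, a nuclear RNA, took 0.446% to 0.585% of the counts in female libraries and 0.974% to 1.97% in male libraries.

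By median TPM, Cdk4, Ccnd2, Ccnd3 and Cdk6 were the most abundant of the 10 transcripts. On TPM the inhibitor Cdkn1b stood above the D cyclin Ccnd1 in 8 of 8 libraries. On CPM, which is not corrected for length, Ccnd1 was the higher in both Vwf+ WT libraries and the Vwf+ Dnmt3a+/- female library. In the other libraries Cdkn1b was the higher on CPM as well. On the length-corrected TPM scale, the median level over 8 libraries was 238 TPM for Cdk4, 160 for Ccnd2, 114 for Ccnd3, 94.9 for Cdk6, 56.9 for Cdkn1b, 39.6 for Ccnd1, 32.7 for Cdkn2d, 17.4 for Cdkn2c, 3.34 for Cdkn1a and 0.0763 for Cdkn2a. The ranges of Cdk4 (218 to 308 TPM) and Ccnd2 (120 to 198 TPM) were apart. So were those of Cdkn1a (1.92 to 11.2 TPM) and Cdkn2a (0 to 0.269 TPM), while the ranges of the other neighbours in this order overlapped. Ccnd3 exceeded Cdk6 in 5 of 8 libraries, Ccnd1 exceeded Cdkn2d in 6 of 8, and Cdkn2d exceeded Cdkn2c in 7 of 8. The levels that varied most between libraries were those of Cdkn1a, with a highest CPM 6.03 times the lowest, Cdkn2c (3.38 times) and Cdk6 (2.94 times). Cdkn1b (1.44 times) and Cdk4 (1.46 times) varied least among the 9 tested genes.

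**Figure D1:**
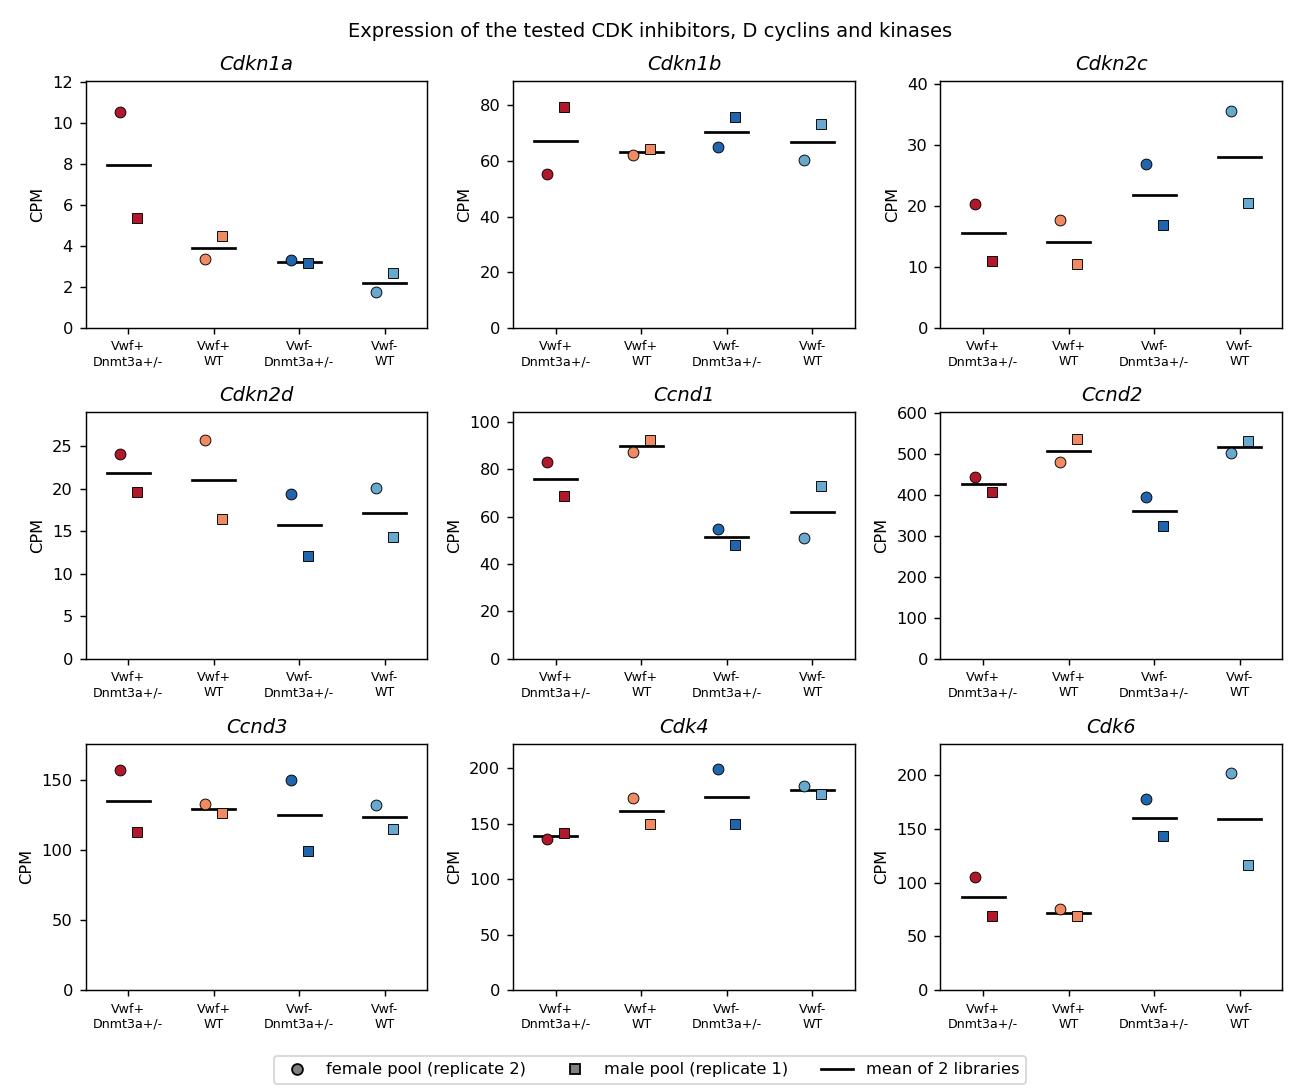
CPM of the 9 tested genes in each of the 8 libraries, by group. Circles are female pools (replicate 2), squares are male pools (replicate 1) and bars are the mean of 2 libraries. The 4 Vwf+ libraries sit below the 4 Vwf- libraries for Cdk6 and above them for Cdkn1a.

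Vwf+ cells were compared with Vwf- cells to ask how the megakaryocyte-biased fraction differs in the cell cycle entry machinery. Cdk6 fell in Vwf+ cells and Ccnd1 rose, averaged over genotype. These were 2 of the 9 tested members, against 5.44% of all tested genes (3.76% higher and 1.68% lower). With replicate number as a block in the model, 4 of 9 passed, Cdk6 and Cdkn2c lower and Ccnd1 and Cdkn1a higher, against 13.4% of all tested genes (7.42% higher and 5.97% lower). The median log2 difference of the 9 was 0.09, and that of all tested genes was -0.01. In sorted bulk cells, fewer cells with a transcript and less transcript per cell cannot be told apart.

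Summed levels of some marker lists also differed between the fractions. The 6 megakaryocyte markers summed to 219 to 360 CPM in Vwf+ libraries and to 167 to 216 CPM in Vwf- libraries, and the 7 endothelial markers to 465 to 573 CPM in Vwf+ libraries and to 353 to 397 CPM in Vwf- libraries. The 5 mast cell and basophil markers summed to 1.21 to 3.78 CPM in Vwf+ libraries and to 8.23 to 14.7 CPM in Vwf- libraries, and the 5 T and NK cell markers to 2.2 to 5.39 CPM in Vwf+ libraries and to 7.66 to 8.65 CPM in Vwf- libraries. These 4 sums were apart between the fractions, the first 2 higher and the others lower in Vwf+ cells. Every library had a count for all 7 endothelial markers, and the megakaryocyte marker Gp6 was at 0 in 2 Vwf+ libraries. Of the mast cell and basophil markers 0 to 3 per library were at 0, most often Cma1. Of the T and NK cell markers 2 to 3 were at 0, always including at least 1 of Cd3d, Cd3e and Cd3g. Il2rb was at 0 in every Vwf- library and had a count in every Vwf+ library. The 2 T and NK cell markers that were tested had point estimates of opposite sign, 1 above 0 and 1 below. The sums of the B cell, neutrophil, monocyte, erythroid, stroma and LT-HSC lists overlapped. By gene, 5 of 10 LT-HSC markers passed as higher in Vwf+ cells and 0 as lower, against 3.76% and 1.68% of all tested genes. Their point estimates were above 0 for 8 and below 0 for 2. Slamf1 stood at 75.6 to 87.1 CPM in Vwf+ libraries and at 20.1 to 26.6 CPM in Vwf- libraries. Kit, the largest term of the LT-HSC sum, stood at 815 to 883 CPM and at 914 to 1030 CPM. The rRNA precursor Rn45s took 7.31% to 11.9% of the counts in Vwf+ libraries and 6.08% to 9.83% in Vwf- libraries, and was higher in the Vwf+ library of each genotype and sex. The part of these cell types and of Rn45s in the differences between the fractions was not tested.

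Cdk6 encodes a kinase partner of the D cyclins (chr5:3341485-3531008, plus strand, GRCm38). In Vwf+ Dnmt3a+/- cells it stood at 105 CPM (female) and 68.7 CPM (male), and in Vwf+ WT cells at 75 CPM (female) and 68.7 CPM (male). In Vwf- Dnmt3a+/- cells it stood at 178 CPM (female) and 143 CPM (male), and in Vwf- WT cells at 202 CPM (female) and 116 CPM (male). Every Vwf+ library was below every Vwf- library, a separation in that direction that 5.33% of tested genes showed. The highest Vwf+ value, in the Dnmt3a+/- female pool, lay close to the lowest Vwf- value, in the WT male pool. Cdk6 fell by 1.02 on the log2 scale (SE 0.19, adjusted p = 0.012, adjusted p = 1.4e-06 with the replicate block). The adjusted p ran from 0.0022 to 0.05 when single libraries were left out, and Cdk6 missed the threshold only without Vwf+ WT replicate 1.

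Within genotypes the difference of Cdk6 was -0.88 ± 0.27 (SE) on the log2 scale in Dnmt3a+/- cells (adjusted p = 0.24, and 0.00073 with the block) and -1.15 ± 0.27 in WT cells (adjusted p = 0.07, and 8.1e-05 with the block). No member passed within either genotype without the block by edgeR, where 1.06% of tested genes passed in Dnmt3a+/- cells and 1.97% in WT cells. The unadjusted p was under 0.05 for 3 members in each genotype. That held for 1435 of the 15917 tested genes in Dnmt3a+/- cells and for 1973 in WT cells. DESeq2 called 1 member in each genotype, Cdk6, among 476 genes in Dnmt3a+/- cells and 729 in WT cells. By limma on TPM 0 members were called, and 89 and 103 genes. With the block, 2 members passed in Dnmt3a+/- cells (Cdk6 and Ccnd1, against 5.37% of tested genes) and 3 in WT cells (those and Cdkn2c, against 8.35%). The interaction for Cdk6 was 0.26 ± 0.38 (95% interval -0.58 to 1.11, adjusted p = 1), so a difference in response between the genotypes was not detectable.

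Cdk4, the other kinase (chr10:127063534-127067920, plus strand), stood at 136 CPM (female) and 142 CPM (male) in Vwf+ Dnmt3a+/- cells and at 173 CPM (female) and 150 CPM (male) in Vwf+ WT cells. It stood at 199 CPM (female) and 150 CPM (male) in Vwf- Dnmt3a+/- cells and at 184 CPM (female) and 177 CPM (male) in Vwf- WT cells. The fractions overlapped, and the difference of -0.24 ± 0.12 (95% interval -0.50 to 0.02) did not pass (adjusted p = 0.34). As a share of the TPM of both kinases, Cdk6 made up 19.1% to 29.7% in Vwf+ libraries and 26.3% to 37.5% in Vwf- libraries. In Vwf+ cells 3 libraries lay at 20.9% or less, and the Vwf+ Dnmt3a+/- female library lay above the lowest Vwf- library.

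The promoter windows of both kinases and 1 of Cdkn2c are shown because they hold the E-box CACGTG, a site type bound by MYC-family factors. Binding to these sites, and any part of such factors in the levels of these genes, was not tested. RefSeq windows of 300 bases around the start of transcription were matched for 8 of the 10 members (12 windows, GRCm38.p6). Ccnd1 and Ccnd2 had no window and were not searched. Of 32851 such windows over all genes, 7.15% hold CACGTG and 0.594% hold it 2 or more times. The window of Cdk4 holds 4, that of Cdk6 holds 1 and 1 of the 2 windows of Cdkn2c holds 1. The Cdkn2c window with the site lies inside the gene, downstream of the other window (chr4:109666707-109667006), which holds 0. The Cdk6 window also lies inside its gene, downstream of the gene start given above. CACGTG reads the same on both strands and is in capitals, and a match is a description of these letters only.
Cdk4, chr10:127063285-127063584, plus strand: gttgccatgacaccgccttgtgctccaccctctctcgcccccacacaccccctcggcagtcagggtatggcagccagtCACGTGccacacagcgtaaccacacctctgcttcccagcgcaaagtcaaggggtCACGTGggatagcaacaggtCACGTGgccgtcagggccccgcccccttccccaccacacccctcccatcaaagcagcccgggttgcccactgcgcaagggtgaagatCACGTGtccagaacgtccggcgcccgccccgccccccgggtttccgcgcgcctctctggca
Cdk6, chr5:3343643-3343942, plus strand: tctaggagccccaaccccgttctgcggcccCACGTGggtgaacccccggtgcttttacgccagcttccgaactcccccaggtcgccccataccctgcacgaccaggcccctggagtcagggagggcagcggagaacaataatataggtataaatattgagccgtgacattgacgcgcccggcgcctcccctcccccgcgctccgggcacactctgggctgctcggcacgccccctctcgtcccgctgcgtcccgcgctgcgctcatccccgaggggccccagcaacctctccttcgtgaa
Cdkn2c, chr4:109665323-109665622, minus strand: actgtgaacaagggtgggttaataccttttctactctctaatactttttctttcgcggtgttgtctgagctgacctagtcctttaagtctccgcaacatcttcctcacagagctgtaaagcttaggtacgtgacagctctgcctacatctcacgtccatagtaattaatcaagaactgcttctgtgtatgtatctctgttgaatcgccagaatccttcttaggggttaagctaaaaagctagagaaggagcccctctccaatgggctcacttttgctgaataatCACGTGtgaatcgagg
The other motifs searched on both strands were the E2F-type TTCGCGC (1.59% of windows) and TTGGCGC (2.45%), the AP-1 site TGACTCA (5.2%) and the forkhead core TGTTTAC (3.65%). Of these only TGTTTAC was found, once, in a window of Ccnd3.

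Ccnd1, a D cyclin induced by mitogens (chr7:144929931-144939925, minus strand), stood at 82.8 CPM (female) and 68.7 CPM (male) in Vwf+ Dnmt3a+/- cells and at 87.3 CPM (female) and 92.3 CPM (male) in Vwf+ WT cells. Levels in Vwf- cells were 54.6 CPM (female) and 47.9 CPM (male) with Dnmt3a+/- and 50.9 CPM (female) and 72.7 CPM (male) in WT. Each Vwf+ library was above the Vwf- library of its own genotype and sex, and the only overlap was between the Vwf+ Dnmt3a+/- male and the Vwf- WT male libraries. Ccnd1 rose 1.47-fold in Vwf+ cells (log2 0.55 ± 0.13 SE, adjusted p = 0.04, and 0.0018 with the block). The call was lost without any of 5 libraries, namely Vwf+ Dnmt3a+/- replicate 2, Vwf+ WT replicates 1 and 2, Vwf- Dnmt3a+/- replicate 1 and Vwf- WT replicate 2, and on TPM (adjusted p = 0.12). Over the 8 fits without 1 library, its adjusted p ran from 0.02 to 0.18. The log2 difference was 0.56 ± 0.19 in Dnmt3a+/- cells (adjusted p = 0.3, 0.047 with the block) and 0.54 ± 0.19 in WT cells (adjusted p = 0.25, 0.043 with the block).

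Exons of Ccnd1 share 1100 bases with the opposite-strand gene LTO1, listed as Oraov1, and the strand setting of the counting is not given in the sources used here. Oraov1 stood at 16 to 22.2 CPM over the 8 libraries, with a difference of -0.07 ± 0.16 between Vwf+ and Vwf- cells (log2, adjusted p = 0.91). Cdk4 overlaps Tspan31 in the same way over 641 bases and Ccnd3 overlaps Bysl over 361, and neither neighbour passed between the fractions (adjusted p = 0.95 and 0.73). Cdk6 shares 368 exonic bases with Gm17590 and Cdkn1a 273 with AC167363.2, both on the opposite strand and not used here.

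Ccnd2, the D cyclin with the highest level here (chr6:127125162-127152193, minus strand), stood at 444 CPM (female) and 407 CPM (male) in Vwf+ Dnmt3a+/- cells and at 479 CPM (female) and 536 CPM (male) in Vwf+ WT cells. Its levels were 395 CPM (female) and 325 CPM (male) in Vwf- Dnmt3a+/- cells and 503 CPM (female) and 530 CPM (male) in Vwf- WT cells. The fractions overlapped, with a log2 difference of 0.11 ± 0.12 (95% interval -0.17 to 0.38, adjusted p = 0.76). Ccnd3, a D cyclin needed by maturing lymphoid and erythroid cells in mouse (chr17:47505051-47599691, plus strand), stood at 157 CPM (female) and 113 CPM (male) in Vwf+ Dnmt3a+/- cells and at 133 CPM (female) and 126 CPM (male) in Vwf+ WT cells. In Vwf- cells it stood at 150 CPM (female) and 99.3 CPM (male) with Dnmt3a+/- and at 132 CPM (female) and 115 CPM (male) in WT. It did not pass between the fractions either (0.09 ± 0.15, 95% interval -0.25 to 0.43, adjusted p = 0.85). In every library Ccnd2 was the most abundant D cyclin, at 45.8% to 53.7% of the summed TPM of the 3 in Vwf+ libraries and 45.8% to 56.8% in Vwf- libraries. Ccnd1 made up 13% to 14% in Vwf+ libraries and 8.43% to 11.8% in Vwf- libraries, and these ranges were apart. How often such shares of other genes are apart was not examined.

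**Figure D2:**
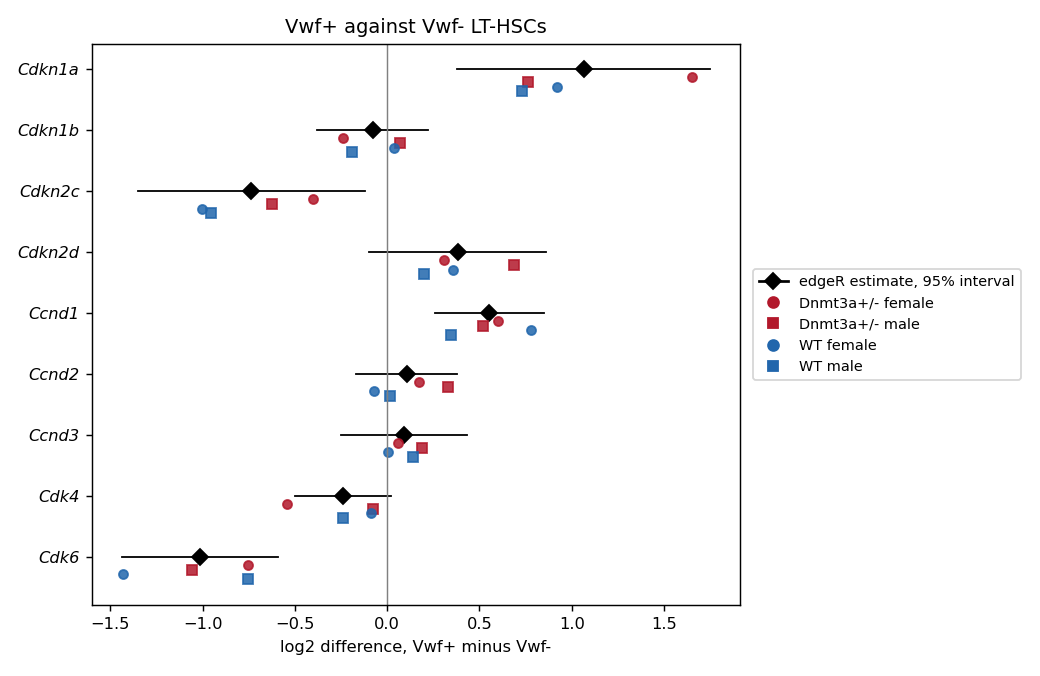
Log2 difference of Vwf+ minus Vwf- cells for each tested gene. Black diamonds and lines are the edgeR estimate and its 95% interval averaged over genotype, and the points below are single Vwf+ and Vwf- libraries of the same genotype and sex. All 4 points are below 0 for Cdk6, Cdkn2c and Cdk4, and all 4 are above 0 for Cdkn1a, Ccnd1, Cdkn2d and Ccnd3.

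The INK4 genes Cdkn2c and Cdkn2d had point estimates of opposite sign, and neither passed. Cdkn2c passed with the block and with no filter on low counts (adjusted p = 0.0012). It did not pass with DESeq2 (adjusted p = 0.058) or on TPM (0.23). Without 1 library its averaged log2 difference ran from -1 to -0.51. Cdkn2c encodes p18-INK4c, known in mouse as a restraint on stem cell self-renewal (chr4:109660876-109667189, minus strand). It stood at 20.3 CPM (female) and 10.9 CPM (male) in Vwf+ Dnmt3a+/- cells and at 17.7 CPM (female) and 10.5 CPM (male) in Vwf+ WT cells. Levels in Vwf- cells were 26.9 CPM (female) and 16.8 CPM (male) with Dnmt3a+/- and 35.6 CPM (female) and 20.5 CPM (male) in WT. The fractions overlapped across sexes, but within each sex both Vwf+ libraries were below their Vwf- counterpart of the same genotype. The log2 difference was -0.74 ± 0.28 (adjusted p = 0.19), and with the block it was -0.75 ± 0.13 (adjusted p = 0.00026).

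By genotype the log2 difference of Cdkn2c was -0.48 ± 0.39 in Dnmt3a+/- cells (adjusted p = 0.91, 0.13 with the block) and -0.99 ± 0.39 in WT cells (adjusted p = 0.33, 0.0011 with the block). Without 1 library it ran from -1 (without the Vwf+ Dnmt3a+/- female library) to -0.10 (without the Vwf+ Dnmt3a+/- male or the Vwf- Dnmt3a+/- female library) in Dnmt3a+/- cells. In WT cells it ran from -1.41 (without the Vwf+ WT female library) to -0.54 (without the Vwf- WT female library). The difference between these differences, 0.51 ± 0.55 (95% interval -0.72 to 1.74), was not detectable (adjusted p = 1).

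Cdkn2d, which encodes p19-INK4d (chr9:21288410-21291407, minus strand), stood at 24.1 CPM (female) and 19.6 CPM (male) in Vwf+ Dnmt3a+/- cells and at 25.7 CPM (female) and 16.4 CPM (male) in Vwf+ WT cells. It stood at 19.4 CPM (female) and 12.1 CPM (male) in Vwf- Dnmt3a+/- cells and at 20.1 CPM (female) and 14.3 CPM (male) in Vwf- WT cells. The fractions overlapped, and the log2 difference of 0.38 ± 0.22 (95% interval -0.10 to 0.86) did not pass (adjusted p = 0.43). Each Vwf+ library was above the Vwf- library of its own genotype and sex, by 0.20 to 0.69 in log2. Cdkn2d passed with the 4 genotype and replicate pools as blocks (0.39, adjusted p = 0.041) and not with replicate number as the block (adjusted p = 0.056). The difference was 0.47 ± 0.31 in Dnmt3a+/- cells and 0.29 ± 0.31 in WT cells (adjusted p = 0.83 and 0.81). As a share of the TPM of both INK4 genes, Cdkn2c made up 23.9% to 32.3% in Vwf+ libraries and 43.9% to 50% in Vwf- libraries. These ranges were apart, though each gene alone overlapped between the fractions. How often shares of other gene pairs are apart was not examined.

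**Figure D3:**
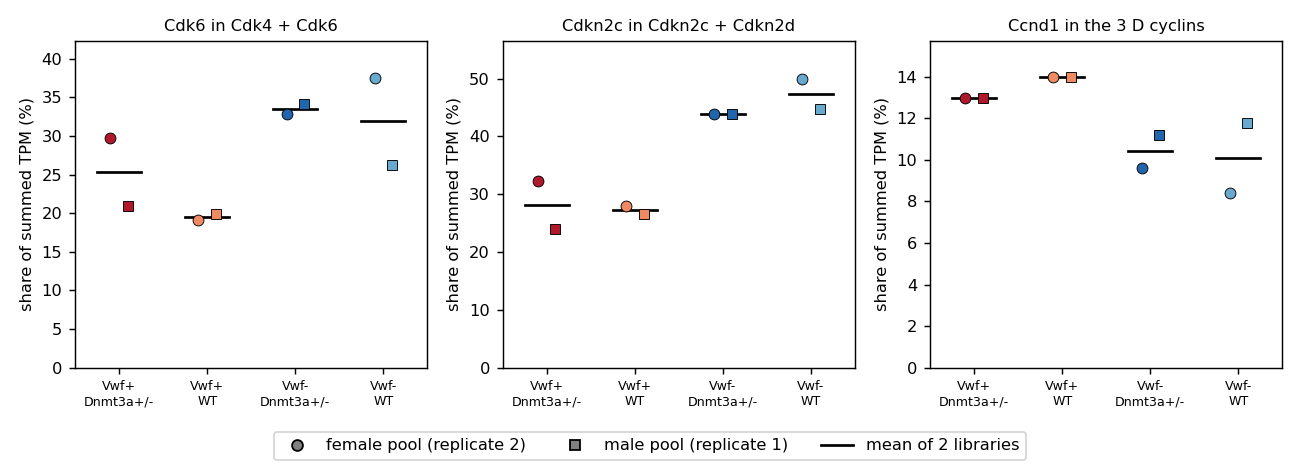
Share of summed TPM held by Cdk6 among the 2 kinases, by Cdkn2c among the 2 tested INK4 genes and by Ccnd1 among the 3 D cyclins, by library. Circles are female pools, squares are male pools and bars are the mean of 2 libraries. The Cdkn2c share is 23.9% to 32.3% in Vwf+ libraries and 43.9% to 50% in Vwf- libraries.

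Cdkn2a, which encodes the INK4a and ARF proteins and is known to be induced in senescent cells (chr4:89274471-89294653, minus strand), was barely counted. It had 1 count in each Vwf+ Dnmt3a+/- library, and 0 (female) and 2 counts (male) in Vwf+ WT cells. Vwf- Dnmt3a+/- cells had 0 (female) and 6 counts (male), and Vwf- WT cells 0 (female) and 3 counts (male). A count of 0 allows a level of up to 3 counts, or 0.129 CPM in the Vwf+ WT female library, 0.0958 CPM in the Vwf- Dnmt3a+/- female library and 0.0901 CPM in the Vwf- WT female library, for counting error only. Cdkn2a did not pass the filter on low counts, so no difference between groups was tested at this depth.

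Among the CIP/KIP genes, Cdkn1a was low, and its highest values were in Vwf+ cells. It encodes p21, the target of p53 in the arrest that follows DNA damage (chr17:29090976-29100727, plus strand). Cdkn1a stood at 10.5 CPM (female) and 5.35 CPM (male) in Vwf+ Dnmt3a+/- cells and at 3.36 CPM (female) and 4.45 CPM (male) in Vwf+ WT cells. In Vwf- Dnmt3a+/- cells it stood at 3.29 CPM (female) and 3.13 CPM (male), and in Vwf- WT cells at 1.74 CPM (female) and 2.65 CPM (male), from 58 to 290 counts per library over all 8. Every Vwf+ library was above every Vwf- library, as were those of 7.71% of tested genes, but the Vwf+ WT female value barely exceeded the Vwf- Dnmt3a+/- female value.

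The log2 difference of Cdkn1a was 1.07 ± 0.31 (adjusted p = 0.084). It passed with the block (adjusted p = 0.021), with DESeq2 (0.023) and with no filter on low counts (0.018). It did not pass on TPM (adjusted p = 0.15) or with RLE scaling (0.088). It was 1.31 ± 0.43 in Dnmt3a+/- cells and 0.83 ± 0.44 in WT cells (adjusted p = 0.3 and 0.51), with an interaction of 0.47 ± 0.61 (adjusted p = 1). The Vwf+ Dnmt3a+/- female library was the highest, and without it the averaged difference was 0.78 and that in Dnmt3a+/- cells 0.74. That library also had the highest sums of the 6 monocyte and macrophage markers, 32.2 CPM against 6.51 to 16.2 CPM in the other 7 libraries, and of the 7 neutrophil markers, 122 CPM against 17.9 to 97.3 CPM. All markers of both lists had a count in every library, and the part of such cells in the Cdkn1a value was not tested.

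Cdkn1b, which encodes p27 (chr6:134920401-134925513, plus strand), stood at 55.2 CPM (female) and 79.5 CPM (male) in Vwf+ Dnmt3a+/- cells and at 62 CPM (female) and 64.4 CPM (male) in Vwf+ WT cells. Its Vwf- levels were 65.2 CPM (female) and 75.9 CPM (male) with Dnmt3a+/- and 60.5 CPM (female) and 73.4 CPM (male) in WT. The fractions overlapped, and the log2 difference of -0.08 ± 0.14 (95% interval -0.38 to 0.22) did not pass (adjusted p = 0.86). On TPM, Cdkn1b exceeded Cdkn1a 4.43 to 15.6 times in Vwf+ libraries and 16.7 to 29.3 times in Vwf- libraries.

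The third CIP/KIP gene, Cdkn1c, which encodes p57 and is known to keep mouse stem cells quiescent, was examined in a list of other CDK inhibitors. It stood at 43.9 to 59.6 CPM in Vwf+ libraries and at 25.8 to 34.5 CPM in Vwf- libraries, which were apart as for 7.71% of tested genes in that direction, and it rose 0.94 ± 0.14 in log2 (adjusted p = 0.0034). Cdkn3, a CDK phosphatase gene, had a difference of -0.29 ± 0.20 (adjusted p = 0.56). Cdkn2b, the remaining INK4 gene, had 0 to 4 counts per library and was not tested. So 1 of the 2 tested genes of this list of 3 rose and 0 fell, against 3.76% and 1.68% of all tested genes.

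The genes downstream of the D cyclins were mostly lower in Vwf+ cells in point estimate. Among 20 E2F targets of S phase entry, 0 rose and 2 fell, against 3.76% and 1.68% of all tested genes. Tyms, which makes a nucleotide precursor of DNA, was among those that fell. Tyms stood at 26.4 to 34.9 CPM in Vwf+ libraries and at 43.7 to 55 CPM in Vwf- libraries (log2 -0.69 ± 0.13, adjusted p = 0.011). The median difference of the list was -0.64, against -0.01 over all tested genes, and all 20 passed as lower with the replicate block, against 5.97% of all tested genes. Among the helicase genes, Mcm2 differed by -0.54 ± 0.28 and Mcm7 by -0.67 ± 0.21, and the origin-licensing gene Cdc6 by -0.84 ± 0.22 (adjusted p = 0.37, 0.12 and 0.051).

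Of 10 tested genes for later cyclins and kinases, 0 passed without the block by edgeR (median -0.44) and 6 were lower with it, against 5.97% of all tested genes. Cyclin E2 (Ccne2) differed by -0.60 ± 0.17 and cyclin A2 (Ccna2) by -0.72 ± 0.38, while cyclin E1 (Ccne1) differed by 0.07 ± 0.25 (adjusted p = 0.087, 0.38 and 0.94). Of these 3, Ccne2 alone had an unadjusted p under 0.05 (0.0063). Of 19 genes for pocket proteins, E2F factors and DREAM subunits, 0 passed without the block (median -0.23), and 1 was higher and 5 were lower with it, against 7.42% and 5.97% of all tested genes. Rb1, which encodes the retinoblastoma protein, differed by 0.07 ± 0.15, its relative Rbl2 by 0.25 ± 0.10 and the activator E2f1 by -0.80 ± 0.21 (adjusted p = 0.9, 0.21 and 0.06).

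The 8 markers of dividing cells, among them Mki67 and Top2a, had counts in every library. None passed between the fractions without the block by edgeR (median -0.77), and all 8 were lower with it, against 5.97% of all tested genes. Their summed level was 1470 CPM (female) and 517 CPM (male) in Vwf+ Dnmt3a+/- cells and 752 CPM (female) and 529 CPM (male) in Vwf+ WT cells. It was 2010 CPM (female) and 773 CPM (male) in Vwf- Dnmt3a+/- cells and 1910 CPM (female) and 958 CPM (male) in Vwf- WT cells. Within each sex and genotype the sum was lower in Vwf+ cells, and across libraries the fractions overlapped. The part of dividing cells in the differences of Cdk6, Cdkn2c and the E2F targets was not tested.

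Among 24 upstream regulators and turnover factors, 1 rose and 2 fell (median -0.03), against 3.76% higher and 1.68% lower of all tested genes, and 4 were higher and 4 lower with the block, against 7.42% and 5.97%. Mycn stood at 480 to 608 CPM in Vwf+ libraries and at 222 to 278 CPM in Vwf- libraries, a rise of 1.13 ± 0.11 in log2 (adjusted p = 0.00034). Myc stood at 140 to 194 CPM in Vwf+ libraries and at 244 to 368 CPM in Vwf- libraries, and fell by 0.88 (SE 0.16, adjusted p = 0.0092). The 2 fractions were apart for both MYC-family genes, in opposite directions, as they were for 7.71% (higher) and 5.33% (lower) of tested genes. Ezh2, which encodes the Polycomb methyltransferase that silences Cdkn2a in many cells, stood at 55.5 to 86.8 CPM in Vwf+ libraries and at 86.2 to 144 CPM in Vwf- libraries (-0.71 ± 0.18, adjusted p = 0.043). Trp53, the p53 gene upstream of Cdkn1a, differed by -0.16 ± 0.13 and the FOXO factor gene Foxo1 by 0.51 ± 0.13 (adjusted p = 0.63 and 0.055).

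The genes whose log2 CPM pattern over the 8 libraries lay nearest to Cdk6 were Cdc6, Timeless and Slc9a9, with a root mean square distance of 0.128, 0.151 and 0.155 after centring. The spread of Cdk6 itself about its mean was 0.574. For Cdkn2c they included Shcbp1 (0.119) and Cux1 (0.15), against a spread of 0.557. For Ccnd1 they were Clstn1 (0.097), C1ra (0.118) and Tmem176a (0.122), against 0.343. For Cdkn1a they were Mpp2 (0.204), Tpm4 (0.238) and Dlg5 (0.271), against 0.706.

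Dnmt3a+/- cells were compared with WT cells to ask what the loss of 1 copy of Dnmt3a does to the same genes. None of the 9 tested members passed, averaged over Vwf status or within either fraction. By edgeR 0 genes passed in these 3 comparisons (0% of 15917), with 516, 363 and 211 genes at an unadjusted p under 0.05. DESeq2 called 15, 3 and 2 genes, the replicate block 30, 6 and 2 (0.188%, 0.0377% and 0.0126% of tested genes), and limma on TPM 0 in each, and no member was among any of them. Averaged over Vwf status, 2 members had an unadjusted p under 0.05, Ccnd2 and Cdkn1a. For the interaction of genotype with Vwf status 0 genes passed with edgeR, the replicate block, DESeq2 or limma, and 159 genes had an unadjusted p under 0.05.

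Ccnd2 was lower in point estimate with Dnmt3a+/-. It stood at 325 to 444 CPM in the 4 Dnmt3a+/- libraries and at 479 to 536 CPM in the 4 WT libraries. These ranges were apart, a separation in that direction that 0.848% of tested genes showed. The log2 difference was -0.39 ± 0.12 (95% interval -0.66 to -0.11, unadjusted p = 0.01, adjusted p = 1, and 0.25 with the block). It was -0.25 ± 0.17 in Vwf+ cells and -0.52 ± 0.17 in Vwf- cells (adjusted p = 1 in both). Ccnd2 has 372 exonic bases on the opposite strand to Gm43126 and 368 to 9330179D12Rik, and 9330179D12Rik stood at 1.44 to 4.61 CPM.

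Cdkn1a stood at 3.13 to 10.5 CPM in Dnmt3a+/- libraries and at 1.74 to 4.45 CPM in WT libraries, which overlapped. Each Dnmt3a+/- library was above the WT library of its own fraction and sex, by 1.62 in Vwf+ female, 0.26 in Vwf+ male, 0.89 in Vwf- female and 0.23 in Vwf- male cells on the log2 scale. The fitted difference was 0.78 ± 0.31 (95% interval 0.10 to 1.47, unadjusted p = 0.029, adjusted p = 1, and 0.58 with the block). It was 1.02 ± 0.43 in Vwf+ cells and 0.55 ± 0.44 in Vwf- cells (adjusted p = 1 in both). Without the Vwf+ Dnmt3a+/- female library the difference was 0.50 averaged and 0.45 in Vwf+ cells. Over all fits without 1 library it ran from 0.50 to 0.98 averaged, from 0.45 to 1.43 in Vwf+ cells and from 0.27 to 0.88 in Vwf- cells. In Vwf- cells the monocyte marker sum was 14.7 to 16.2 CPM with Dnmt3a+/- and 6.51 to 8.7 CPM in WT, and the neutrophil marker sum was 38.2 to 65.2 CPM with Dnmt3a+/- and 17.9 to 29.8 CPM in WT. Both sums were higher with Dnmt3a+/- there. In Vwf+ cells the monocyte sum was 12.3 to 32.2 CPM with Dnmt3a+/- and 7.84 to 12.3 CPM in WT, and the neutrophil sum was 42.1 to 122 CPM with Dnmt3a+/- and 53.3 to 97.3 CPM in WT. Their part in the Cdkn1a values was not tested.

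The other 7 tested members had 95% intervals that held 0. The widest bounds were those of Cdkn2c (-0.11, interval -0.72 to 0.51), Cdkn2d (-0.04, -0.52 to 0.44) and Cdk6 (0.15, -0.28 to 0.57). For Ccnd1 the difference was -0.26 (-0.55 to 0.04), for Cdk4 -0.13 (-0.39 to 0.13), for Cdkn1b 0.08 (-0.22 to 0.38) and for Ccnd3 0.04 (-0.30 to 0.38). None of the E2F targets, later cyclins, pocket protein and E2F genes or upstream regulators passed either, with medians of 0.09, 0.19, 0.09 and 0.00, against 0.01 over all tested genes. With 2 pools per group the intervals for Cdkn2c, Cdkn2d, Cdk6 and Ccnd1 still admit differences of 0.5 and more on the log2 scale.

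**Figure D4:**
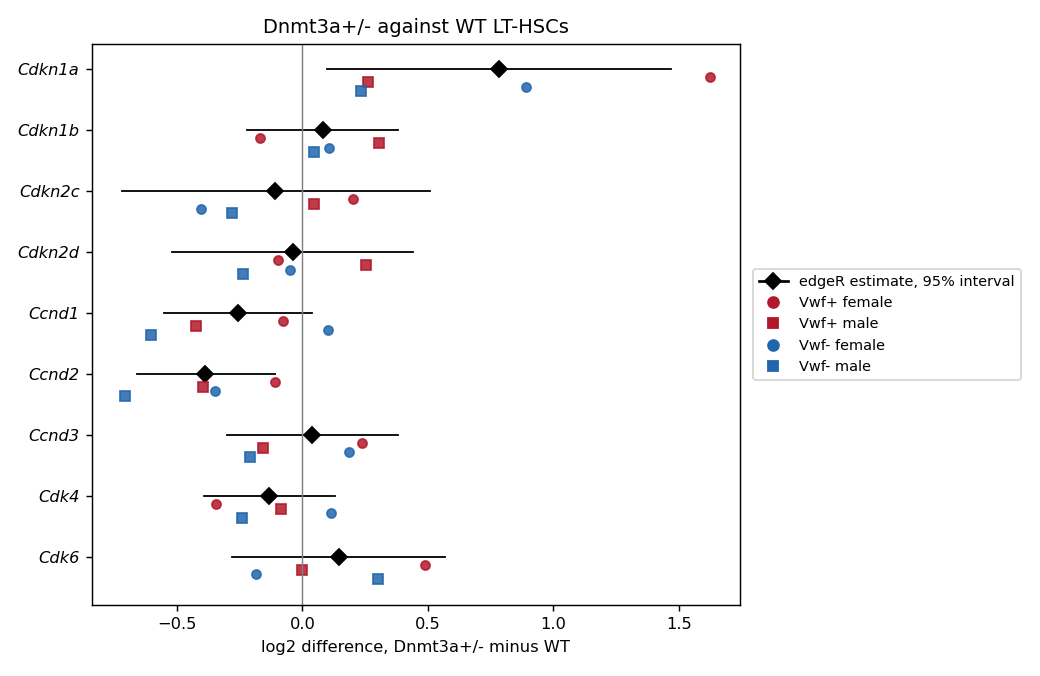
Log2 difference of Dnmt3a+/- minus WT cells for each tested gene. Black diamonds and lines are the edgeR estimate and its 95% interval averaged over Vwf status, and the points below are single Dnmt3a+/- and WT libraries of the same fraction and sex. The intervals of Cdkn1a (0.10 to 1.47) and Ccnd2 (-0.66 to -0.11) exclude 0 before adjustment over 15917 genes.

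Female libraries were compared with male libraries because the 2 libraries of each group differ in sex as well as in replicate number. In female libraries 4 of the 9 tested members were higher and 0 were lower, against 10.5% of all tested genes in either direction (5.62% higher and 4.92% lower). Of the 1677 genes called, 894 were higher, while limma on TPM called 287 with 93 higher and 1 member, Cdkn2c. Cdkn2c rose 1.72-fold in female libraries (log2 0.78 ± 0.13, adjusted p = 0.00068) and was higher in the female library of all 4 groups, by 0.68 to 0.90 on the log2 scale. Its call was kept without any single library.

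The other 3 calls were Cdkn2d (0.53 ± 0.13, adjusted p = 0.015), Cdk6 (0.47 ± 0.11, adjusted p = 0.0094) and Ccnd3 (0.34 ± 0.10, adjusted p = 0.041). Each was higher in the female library of all 4 groups, and Ccnd3 alone had ranges that were apart, 132 to 157 CPM in female libraries and 99.3 to 126 CPM in male libraries, as did 5.35% of tested genes in that direction. The call of Cdkn2d was lost without either Vwf- Dnmt3a+/- library (adjusted p = 0.064 in both) and that of Cdk6 without either Vwf- WT library (0.079 without replicate 1 and 0.076 without replicate 2). Ccnd3 kept its call only without either Vwf+ WT library, and its adjusted p ran from 0.0011 to 0.28. On TPM these 3 missed the threshold, with adjusted p = 0.082, 0.16 and 0.24. Cdkn1b had the opposite sign (-0.27 ± 0.10, adjusted p = 0.092), and passed without either Vwf+ WT library (adjusted p = 0.022 without replicate 1 and 0.017 without replicate 2).

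Cdk4 (0.15 ± 0.10), Cdkn1a (0.02 ± 0.31), Ccnd1 (-0.03 ± 0.12) and Ccnd2 (0.04 ± 0.10) did not pass, with adjusted p between 0.37 and 0.97. Of the 20 E2F targets 16 rose and 0 fell in female libraries (median 0.63, against -0.02 over all tested genes), among them Mcm2 by 0.81 ± 0.10 and Rrm2 by 0.96 ± 0.14 (adjusted p = 8.8e-05 and 0.00019). Of the later cyclins and kinases 5 of 10 rose, and of the pocket protein, E2F and DREAM genes 7 of 19, with 0 lower in both lists. Over all tested genes, 5.62% were higher and 4.92% lower in female libraries. All 8 dividing-cell markers rose, with Mki67 at 1.20 ± 0.14 (adjusted p = 3.6e-05), and the immediate-early gene Egr1 fell by 0.97 (SE 0.14, adjusted p = 0.00029). Rn45s took 8.24% to 11.9% of the counts in female libraries and 6.08% to 8.96% in male libraries and was higher in the female library of all 4 groups, and Malat1 took 0.446% to 0.585% in female libraries and 0.974% to 1.97% in male libraries. Sex and replicate number cannot be told apart here, and the part of dividing cells, Rn45s and Malat1 was not tested.

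**Figure D5:**
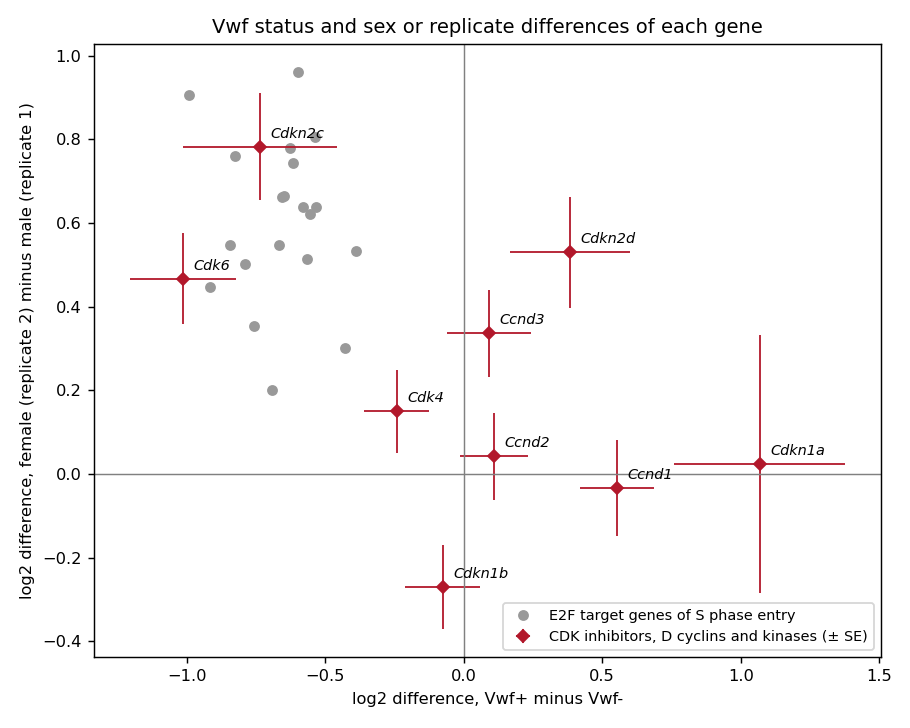
Log2 difference of Vwf+ minus Vwf- cells (horizontal) and of female minus male libraries (vertical) for the 9 tested members (diamonds, with SE) and 20 E2F targets (grey circles). Cdkn2c (-0.74 and 0.78) and Cdk6 (-1.02 and 0.47) lie on the side of the E2F targets, Cdkn2d (0.38 and 0.53) lies on the other side of the vertical line, and Ccnd1 (0.55 and -0.03) lies near the horizontal line.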

How the data were processed

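RNA was sequenced in 8 libraries of sorted mouse LT-HSCs, 4 groups of 2. The deposited raw count table holds whole-number counts per gene symbol, and a second deposited table holds TPM values that sum to 1e+06 per library. Trim Galore, STAR, featureCounts, DESeq2 and the build mm10 are named, per the submitters' processing notes. Versions, annotation and strand setting are not given in the sources used here. Reads of overlapping genes are therefore of uncertain assignment.

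Counts were tested in R 4.3.3 with edgeR 4.0.16: filterByExpr with a minimum count of 10, TMM scaling with factors from 0.958 to 1.06, then the quasi-likelihood test with 4 group means and all 8 libraries (4 residual degrees of freedom). Benjamini-Hochberg adjustment ran over all 15917 genes that passed the filter, and a gene passed at an adjusted p under 0.05. The female against male contrast came from a model with sex beside the 4 group means. The SE is the log2 difference divided by the square root of F, and intervals are 95%. CPM uses the scaled library sizes. "On TPM" means limma 3.58.1 on log2(TPM + 1), and a fold change on that scale understates that of low genes. The scripts were tested on simulated counts. DESeq2 1.42.0, RLE scaling, no filter, replicate blocks, the libraries of a contrast alone and leaving out each library were alternatives.

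Without a block, a Vwf or genotype difference is judged against the spread between pools of mice. Within a group only a female and a male pool can differ. With a block, and in the female against male fit, the shift shared by the libraries of a replicate or pool is taken out. Those p-values rest on the deviations that remain (3 residual degrees of freedom). Replicate numbers pair libraries, since the labels give a number the same sex in each group. The deviations from group means correlated for all 6 pairs of groups (r = 0.13 to 0.3 over 15917 genes, which are not independent). The labels do not say whether the fractions of a replicate came from the same mice. The members and gene lists were chosen with earlier results of these data known, and all 10 members are given by library. Gene coordinates come from GENCODE M21 (GRCm38, or mm10). Values of 2 genes that these rules would name are not reported here.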

Additional observations from a re-analysis of the deposited data

Results flagged for a closer look

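The genotype differences of Ccnd3 had opposite signs in female (replicate 2) and male (replicate 1) libraries. It was picked by this sign pattern from the 9 tested members. The log2 CPM difference of Dnmt3a+/- minus WT was 0.24 in Vwf+ female, 0.19 in Vwf- female, -0.16 in Vwf+ male and -0.21 in Vwf- male cells. Each sex has 2 such differences, from 1 library a side, and the difference between the sexes was not tested. Sex and replicate number cannot be told apart in it.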

How the results depend on the processing

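Fits compared were DESeq2, no filter, limma on TPM, the replicate block, the libraries of a contrast alone and 8 fits that leave out 1 library. RLE scaling changed no call of a reported member. Genes called between Vwf+ and Vwf- cells averaged over genotype (866) numbered 1353, 1649, 563 and 2132 in the first 4, 2502 with 4 pool blocks, and 472 (without Vwf- WT replicate 2) to 1387 (without Vwf- Dnmt3a+/- replicate 1) without 1 library. In Dnmt3a+/- cells (169) they numbered 476, 633, 89, 855, 42 with the contrast alone and 75 to 291 without 1 library (lowest without Vwf+ Dnmt3a+/- replicate 2, highest without Vwf- Dnmt3a+/- replicate 1). In WT cells (314) they numbered 729, 1059, 103, 1329, 747 and 64 to 639 (lowest without Vwf- WT replicate 2, highest without Vwf- Dnmt3a+/- replicate 1). Members called, averaged over genotype, were 3 with DESeq2, 4 with no filter, 1 on TPM, 4 with the replicate block, 5 with 4 pool blocks (Cdkn2d added, adjusted p = 0.041) and 0 to 2 without 1 library. In Dnmt3a+/- cells they were 1 with DESeq2, 1 with no filter and 2 with the block, and in WT cells 1, 2, 3, 1 with the contrast alone and 0 to 1 without 1 library. Genotype called 15 genes with DESeq2, 61 with no filter and 30 with the block averaged over Vwf status (0 to 3 without 1 library), 3, 53 and 6 in Vwf+ cells and 2, 27 and 2 in Vwf- cells. The interaction called 24 with no filter. The female against male contrast called 287 genes and 1 member on TPM, and 713 to 2922 genes (lowest without Vwf- Dnmt3a+/- replicate 2, highest without Vwf+ WT replicate 1) and 2 to 5 members without 1 library. The cause of these shifts was not tested. Values that changed sign did not pass in either fit. On TPM these were Cdkn2d with genotype (0.02) and Ccnd2 with sex (0 after rounding, from a value below 0). Without 1 library, the Vwf difference ran from -0.22 to 0.04 for Cdkn1b, from -0.05 to 0.25 for Ccnd3 and, in WT cells, from -0.06 to 0.56 for Cdkn2d. The genotype difference ran from -0.06 to 0.2 for Cdkn1b, -0.37 to 0.12 for Cdkn2c, -0.23 to 0.14 for Cdkn2d, -0.13 to 0.17 for Ccnd3 and -0.03 to 0.37 for Cdk6. The interaction ran from -0.09 to 0.88 for Cdkn1a, -0.01 to 0.93 for Cdkn2c and -0.19 to 0.62 for Cdk6, and the sex difference from -0.31 to 0.24 for Cdkn1a, -0.14 to 0.14 for Ccnd1 and -0.05 to 0.12 for Ccnd2. TPM moved the median of all tested genes to 0.117 for genotype in Vwf+ cells, -0.105 for Vwf status in WT cells and 0.146 for the interaction. Cdkn2a, at 0 to 6 counts per library, was below the filter, and Cdkn1a had 58 to 290 counts. The part of depth in the spread of Cdkn1a was not tested. With the replicate block no member call changed other than those given beside the results.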
